A study of Mus musculus with 6 samples.

Results

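The kinases and F-box proteins that set the stability of the PER and CRY clock proteins were examined in synchronized mGLUTag cells, together with Timeless. The group comprised 7 genes, the casein kinases Csnk1a1, Csnk1d and Csnk1e, the F-box proteins Btrc and Fbxw11, the kinase Gsk3b, and Timeless. All array probes with these symbols in upper case (CSNK1A1, CSNK1D, CSNK1E, BTRC, FBXW11, GSK3B and TIMELESS) were taken, which gave 18 of the 45281 probes and 7 of the 30854 symbols. mGLUTag cells are murine and immortalized and stand in for the L-cell, an enteroendocrine cell of the intestine that secretes glucagon-like peptide-1. All cells had been held in low serum, treated with forskolin, which raises cAMP, and returned to growth medium, and no unsynchronized cells were included. RNA was collected at 4 h (n = 3) and 16 h (n = 3), which the study selected as the peak and trough of Arntl (Bmal1) mRNA, and each sample was hybridized to 1 array of an Illumina BeadChip. The samples of a time point are not stated to come from separate cultures, so the p-values measure the spread between these samples only, and in RNA from whole cultures a difference in the share of cells cannot be told apart from a difference in RNA per cell.

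The circadian clock is a transcriptional feedback loop in which BMAL1 and CLOCK activate the Per and Cry genes through E-boxes, and the PER and CRY proteins return to the nucleus to repress BMAL1 and CLOCK. The pace of this loop depends on how long the repressors last. Casein kinase 1 phosphorylates PER proteins, and the phosphorylated PER is recognized by the F-box proteins encoded by Btrc and Fbxw11, which hand it to an SCF ubiquitin ligase for degradation. GSK3B phosphorylates several clock proteins. Control by these enzymes acts on protein, so the array reports the supply of their transcripts and not their activity.

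The arrays were first examined for brightness and cell identity. Mean intensity per array was between 216 and 354, and the 3 arrays at 4 h were the 3 brightest. For this reason the time points were compared after quantile normalization, in which each log2 change (4 h minus 16 h) is relative to the other probes. Since background had been subtracted, the size of the negative values on an array gave its noise, and a probe was taken as detected where it exceeded the 99th percentile of those sizes (the noise limit), which was between 9.2 and 14 intensity units. Of all probes, 17366 were detected on at least 3 arrays and serve as the background below. Of 10 L-cell and enteroendocrine markers, 8 were detected on all 6 arrays, including the proglucagon gene Gcg, whereas Pcsk1 was detected on 1 array and Pyy on none. Of 14 markers of other cell types, the goblet marker Tff3 and the fibroblast marker Col1a1 were detected on all 6 arrays, and the beta cell markers Ins1 and Ins2 on none.

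Transcripts of 5 of the 7 genes were measured. Of the 18 probes, 11 were detected on all 6 arrays, and these belonged to Csnk1d (5 probes), Csnk1e (2 probes), Btrc (2 probes), Gsk3b (1 probe) and Timeless (1 probe). The single probe for Csnk1a1 read -5.2, -5.9 and -2.5 at 4 h and -6.2, -0.7 and -2.0 at 16 h. That for Fbxw11 read -17.7, -4.3 and -2.7 at 4 h and 0.2, 2.5 and -5.7 at 16 h. Both lay below the noise limit on every array, so no change is given for either gene, and a probe at background does not show that the transcript was absent. The other 5 probes at or near background were 3 of the 5 probes for Btrc and 2 of the 3 for Timeless, which were detected on between 0 and 2 arrays. Probes differ in sensitivity, so the levels of different genes were not ranked.

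**Figure D1:**
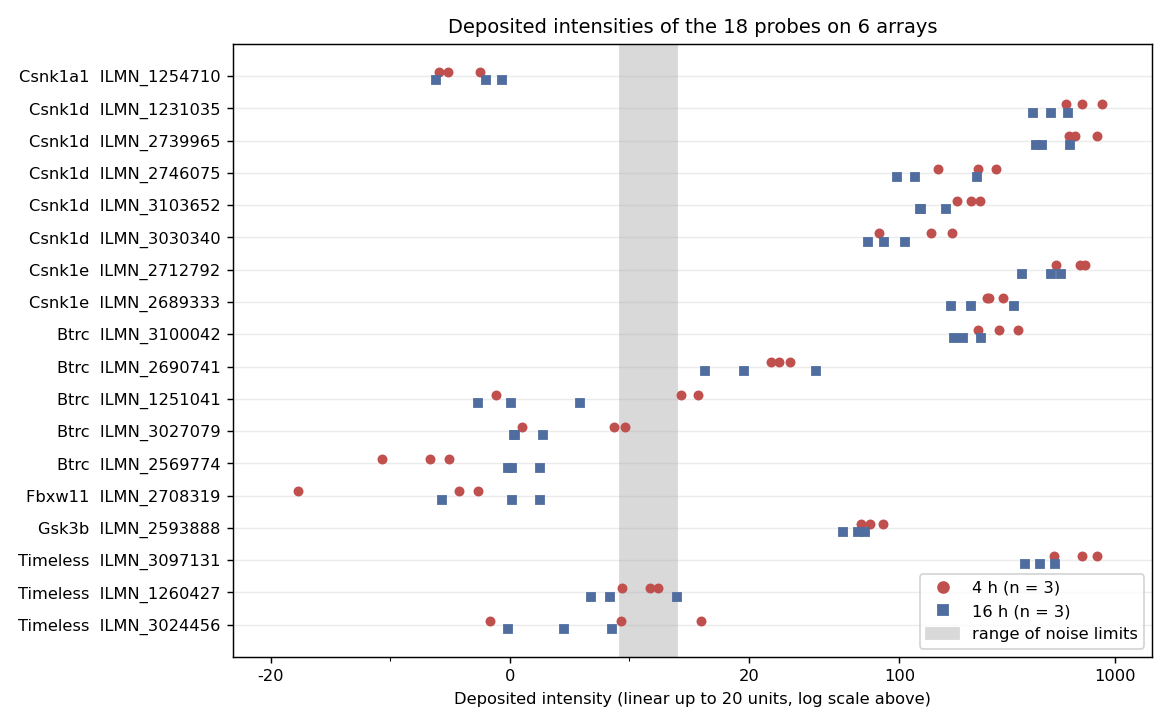
Deposited intensity (horizontal axis, linear up to 20 units and logarithmic above) of the 18 probes for the 7 genes on 3 arrays at 4 h (circles) and 3 at 16 h (squares). The shaded band spans the noise limits of the arrays, 9.2 to 14 units, and 11 probes lie to its right on all 6 arrays, whereas the probes for Csnk1a1 and Fbxw11 lie to its left.

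The promoters were then compared for clock response elements, since genes of the transcribed loop are known to be controlled through them. RefSeq windows (GRCm38.p6, from 250 bases before to 50 bases after each gene start) were found for 4 of the 7 genes, namely Csnk1e, Fbxw11, Gsk3b and Timeless, and for 17 of 20 genes of the transcribed loop. Csnk1a1, Csnk1d and Btrc had no entry. The E-box CACGTG, which reads the same on both strands, was in the windows of 0 of 4 kinase, ligase and Timeless genes and of 5 of 17 loop genes (Per1, Cry1, Bhlhe41, Ciart and Tef), and in those of 8.09% of 27025 genes. The D-boxes TTATGTAA and TTATGCAA, searched on both strands and bound by output factors such as TEF and DBP, were found in Timeless, Per1 and Per3, against 1.98% of genes. The core of the RORE, the element bound by ROR and REV-ERB receptors, was searched on both strands and was found in Arntl alone among these genes, against 0.259% of genes. A match describes letters in this window only. The 250 bases before the start are shown for 3 measured genes and, for contrast, for Tef and Ciart. These loop genes had the most negative log2 changes at the brightest probe in the main fit. With detected probes averaged Ciart gave -0.39, behind Nr1d2 (-0.49), Dbp (-0.48) and Bhlhe40 (-0.41). The windows of Nr1d2 and Dbp held no E-box, and a link between element and change was not tested. Capitals mark an E-box or a D-box.
Csnk1e (chr15:79442144-79442393, minus strand): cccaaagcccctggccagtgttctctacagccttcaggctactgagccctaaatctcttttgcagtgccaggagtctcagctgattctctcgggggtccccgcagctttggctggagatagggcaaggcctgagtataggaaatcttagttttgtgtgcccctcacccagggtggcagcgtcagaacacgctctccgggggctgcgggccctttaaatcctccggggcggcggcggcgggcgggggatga
Gsk3b (chr16:38088751-38089000, plus strand): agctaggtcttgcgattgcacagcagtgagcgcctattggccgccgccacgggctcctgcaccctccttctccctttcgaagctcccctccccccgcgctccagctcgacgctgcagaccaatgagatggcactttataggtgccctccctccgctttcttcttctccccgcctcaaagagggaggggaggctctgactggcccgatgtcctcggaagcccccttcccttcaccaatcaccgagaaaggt
Timeless (chr10:128237816-128238065, plus strand): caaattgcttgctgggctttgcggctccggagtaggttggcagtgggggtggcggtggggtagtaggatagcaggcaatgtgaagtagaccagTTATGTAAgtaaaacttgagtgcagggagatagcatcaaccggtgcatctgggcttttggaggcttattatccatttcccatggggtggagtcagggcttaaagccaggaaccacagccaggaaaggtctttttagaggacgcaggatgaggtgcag
Tef (chr15:81802423-81802672, plus strand): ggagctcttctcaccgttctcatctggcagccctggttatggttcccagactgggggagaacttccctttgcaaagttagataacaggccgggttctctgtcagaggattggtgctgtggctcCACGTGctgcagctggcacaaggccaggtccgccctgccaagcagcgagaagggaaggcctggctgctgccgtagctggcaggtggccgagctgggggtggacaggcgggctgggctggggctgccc
Ciart (chr3:95882229-95882478, minus strand): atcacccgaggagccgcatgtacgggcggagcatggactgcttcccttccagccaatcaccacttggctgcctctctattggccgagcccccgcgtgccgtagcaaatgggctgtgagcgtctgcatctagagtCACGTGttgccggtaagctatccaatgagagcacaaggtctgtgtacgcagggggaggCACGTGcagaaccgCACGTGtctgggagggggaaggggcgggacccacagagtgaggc
The Timeless stretch holds 1 D-box at bases 94 to 101, Tef holds 1 E-box at bases 124 to 129, and Ciart holds 3 E-boxes, the first at bases 135 to 140. The Csnk1e and Gsk3b stretches hold no match to these letters.

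None of the 5 measured genes differed between 4 h and 16 h beyond the threshold. After Benjamini-Hochberg adjustment of the limma p-values, 0 of 5 genes were called, where 0.00883% of all probes were called (0.00442% higher and 0.00442% lower at 4 h). At an unadjusted p under 0.05 the count was also 0 of 5, where 10.3% of the detected probes passed, and the values of the time points overlapped in all 5, where 11.4% of detected probes did not overlap. The median log2 change of the 5 genes was -0.05, with a range from -0.17 to 0.05, against a median of 0.0045 over the detected probes. With 5 genes, counts of 0 are close to these backgrounds and do not set the group apart from other transcripts.

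Of the casein kinases, Csnk1d encodes CK1 delta, a main kinase of PER. At its probe with the highest mean (ILMN_1231035), the deposited intensity was 706.6, 597.5 and 878.5 at 4 h and 507.6, 608.1 and 416.4 at 16 h. Normalized log2 intensities were 9.24, 9.31 and 9.55 at 4 h and 9.34, 9.52 and 9.31 at 16 h. Both the highest and the lowest value were at 4 h, and the 16 h values lay between them. The log2 change was -0.02 (SE 0.098, limma adjusted p = 0.994), with a 95% interval from -0.24 to 0.20. It was -0.11 without 4 h replicate 3, and its direction turned without 4 h replicate 1 (0.042), 4 h replicate 2 (0.0053) or 16 h replicate 2 (0.041). The other 4 probes for Csnk1d gave log2 changes of -0.05, 0.03, 0.04 and -0.01 (limma adjusted p between 0.983 and 0.997).

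Csnk1e encodes CK1 epsilon, the closest relative of CK1 delta. Its brighter probe (ILMN_2712792) read 727.3, 532.7 and 693.7 at 4 h and 508.7, 565.1 and 371.6 at 16 h. After normalization the values were 9.28, 9.17 and 9.26 at 4 h and 9.35, 9.41 and 9.18 at 16 h, so that 2 of the 16 h values lay above all 4 h values and the remaining 16 h value lay among them. The log2 change was -0.08 (SE 0.081, limma adjusted p = 0.963), with a 95% interval from -0.26 to 0.11. It was between -0.028 (without 16 h replicate 2) and -0.15 (without 16 h replicate 3) when 1 array was left out. The other probe (ILMN_2689333) spread more widely, at 7.97, 8.31 and 8.21 at 4 h and 8.03, 8.79 and 8.52 at 16 h, and gave -0.28 on the same scale (SE 0.17, limma adjusted p = 0.942). That value was -0.11 without 16 h replicate 2, -0.49 without 16 h replicate 1, -0.18 without 4 h replicate 1 and -0.14 with a block for the arrays high in 18S ribosomal RNA.

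Btrc encodes beta-TrCP1, 1 of the 2 F-box proteins that bind phosphorylated PER. Its brightest probe (ILMN_3100042) read 356.6, 230.7 and 290.6 at 4 h and 239.5, 180.2 and 197.8 at 16 h. Normalized log2 values were 8.37, 8.18 and 8.16 at 4 h and 8.40, 8.05 and 8.41 at 16 h, and the 16 h arrays held both the highest and the lowest value. The log2 change was -0.05 (SE 0.11, limma adjusted p = 0.983), with a 95% interval from -0.30 to 0.20. It was -0.17 without 16 h replicate 2, and its direction turned without 16 h replicate 1 (0.0039) or 16 h replicate 3 (0.012). A second, dimmer probe (ILMN_2690741, intensities between 16.3 and 40.9) gave -0.11 (SE 0.11, limma adjusted p = 0.962). Its highest value, 40.9, was on the array of 16 h replicate 2, which also held the highest value of the second Csnk1e probe and the lowest value of the brightest Btrc probe.

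Gsk3b encodes glycogen synthase kinase 3 beta. At the brightest probes it had the log2 change farthest from 0 among the 5 genes in the main fit. This rank was lost with the probes of a gene averaged (-0.17, and -0.18 for Csnk1e). It was lost without normalization and with median scaling (0.16 and 0.072, against 0.53 and 0.44 for Timeless). The 18S block (-0.093, and -0.10 for Csnk1e) and leaving out 4 h replicate 1, 16 h replicate 2 or 16 h replicate 3 also changed it. The probe (ILMN_2593888) read 66.0, 72.7 and 84.1 at 4 h and 54.7, 69.4 and 64.5 at 16 h. Normalized log2 values were 6.76, 7.10 and 6.99 at 4 h and 6.95, 7.16 and 7.27 at 16 h. At 4 h the lowest value was found and at 16 h the 2 highest, with overlap between them. The log2 change was -0.17 (SE 0.11, limma adjusted p = 0.946), with a 95% interval from -0.42 to 0.07. The probe is dim, and its log2 change depended on the background setting. With an offset of 16 in place of 50 the log2 change was -0.24 (limma adjusted p = 0.942). Without background correction and its offset together the log2 change was -0.34 (limma adjusted p = 0.845). It was -0.079 without 4 h replicate 1, -0.27 without 16 h replicate 1, -0.10 without 16 h replicate 3, and -0.093 with a block for the arrays high in 18S ribosomal RNA.

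Timeless encodes a protein that associates with the PER and CRY complex in mammals and that, with TIPIN, travels with the replication fork. The measured probe (ILMN_3097131) read 832.2, 521.3 and 706.7 at 4 h and 450.5, 527.7 and 385.4 at 16 h. Normalized log2 values were 9.46, 9.13 and 9.28 at 4 h and 9.18, 9.32 and 9.22 at 16 h. Again, both the highest and the lowest value were found at 4 h. The log2 change was 0.05 (SE 0.093, limma adjusted p = 0.980), with a 95% interval from -0.16 to 0.26. Its direction turned when 4 h replicate 1 was left out (-0.034).

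**Figure D2:**
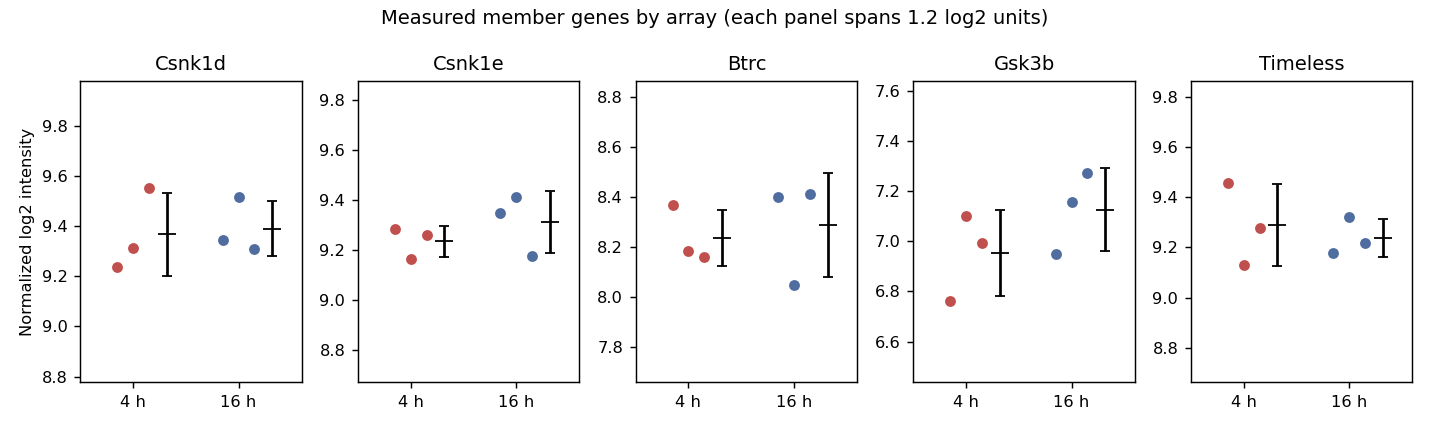
Normalized log2 intensity (vertical axis) of the 5 measured genes at the probe with the highest mean, with 1 point per array at 4 h (red) and 16 h (blue) and bars for the mean ± SD (n = 3). The time points overlap in every panel, and the log2 changes are between -0.17 and 0.05.

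The deposited scale, which holds the brightness of the arrays, was also examined. The log2 ratio of mean intensity (4 h over 16 h) was 0.60 for Timeless, 0.51 for Csnk1d, 0.51 for Btrc, 0.43 for Csnk1e and 0.24 for Gsk3b, and the median over detected probes was 0.55. None of the 5 had deposited intensities at its brightest probe that separated the time points, whereas 44.5% of detected probes were higher on every 4 h array and 0.219% were lower. Of the other 6 detected probes of these genes, 1 did so, Csnk1d ILMN_3103652, at 185.7, 215.5 and 237.6 at 4 h against 125.4, 163.9 and 124.5 at 16 h. Its normalized values overlapped. Without between-array normalization the median log2 change of the 5 genes was 0.41 and that of probes detected on all 6 arrays was 0.39, and limma called 0 of the 5 at the brightest probe but called ILMN_3103652 higher at 4 h (log2 change 0.48, adjusted p = 0.0491), 1 of 2308 probes called higher in that setting. At the brightest probe, or the mean of their probes, the 5 genes were called in none of the 19 alternatives that were run.

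The probes of a gene were next compared with each other. Over 6 pairs of probes, the change of the brightest probe differed from that of another probe of its gene by between -0.06 and 0.20 on the log2 scale, and no pair separated the time points (exact two-sided permutation test, p between 0.6 and 0.9, adjusted p = 0.9 over the 6 pairs). The probes for Csnk1d nevertheless varied differently between arrays. The 2 brightest probes followed each other closely, with an SD of 0.08 for their log2 difference over the 6 arrays, and this SD was 0.30 between the brightest probe and ILMN_2746075. The latter was at 7.87, 8.12 and 8.34 on the arrays of 4 h replicates 1 and 3 and 16 h replicate 1, and at 7.73, 7.62 and 7.65 on the other 3 arrays. The same 3 arrays had the highest values of the 18S ribosomal RNA probes, with a mean log2 intensity between 8.48 and 10.55 against 6.90 to 7.69 on the others. Probe ILMN_3030340 had its 3 highest deposited intensities on these arrays as well (140.8, 175.6 and 105.9, against 71.3 to 84.4), although its normalized values overlapped. Among the detected probes, 10.3% were higher on all 3 of these arrays than on all of the others. The part of this separation in the values of ILMN_2746075 was not tested beyond a fit with it as a block, which gave a log2 change of -0.13 (limma adjusted p = 0.957) in place of 0.03. The reverse pattern was found for Gsk3b and for Csnk1e ILMN_2689333, which were lower on all 3 of these arrays than on all of the others, as were 9.31% of detected probes. The remaining 8 detected probes of the 5 genes overlapped in this comparison.

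**Figure D3:**
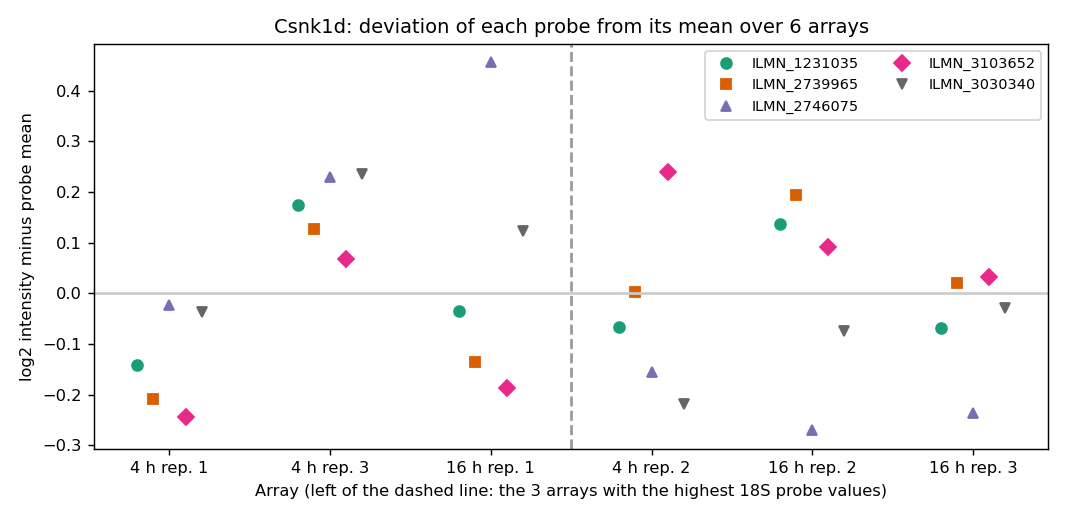
Deviation of each of the 5 Csnk1d probes from its own mean over the 6 arrays (vertical axis, log2 units), with the 3 arrays that had the highest 18S ribosomal RNA values to the left of the dashed line. Probe ILMN_2746075 (triangles) is higher on all 3 arrays to the left than on any to the right, and the 2 brightest probes (circles and squares) are not.

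The measured genes were then set beside the transcribed clock loop, since the study chose these times for the phase of that loop. Of 20 loop genes, 19 had a probe and 11 were detected. At an unadjusted p under 0.05, 8 of the 11 were lower and 1 was higher at 4 h, where 4.82% and 5.45% of detected probes were lower and higher. The same 8 and 1 genes had time points that did not overlap, against 5.33% and 6.1% of detected probes. On the deposited scale the tally differed, and 2 loop genes (Arntl and Clock) were higher on every 4 h array and 1 (Tef) was lower. Of the detected probes, 44.5% were higher and 0.219% were lower in this way. Without between-array normalization Per1 (0.11) and Dbp (0.0011) had log2 changes above 0, and those of Per2, Nr1d2, Cry2 and Bhlhe40 were between -0.053 and -0.0072. After adjustment over all probes, 1 passed (Tef). The median log2 change of the 11 was -0.41, against -0.05 for the 5 kinase, ligase and Timeless genes. The median absolute log2 change was 0.45 in the loop and 0.05 in the 5 genes, and 0.09 over the detected probes. Without between-array normalization the order of the loop and the 5 genes was reversed. The middle absolute change was then that of Nr1d1 in the loop (0.058) and that of Btrc among the 5 genes (0.41).

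In the loop, the activator Arntl was at 7.36, 7.34 and 7.43 at 4 h and at 6.79, 6.92 and 6.87 at 16 h, with all 4 h values above all 16 h values (log2 change 0.52, SE 0.069, limma adjusted p = 0.141). For Arntl, leaving out the background correction gave a log2 change of 0.96 (limma adjusted p = 0.155) and leaving out the normalization gave 0.87 (limma adjusted p = 0.0309). The repressor Per2, a substrate of casein kinase 1, was at 8.18, 7.74 and 7.72 at 4 h and at 8.33, 8.32 and 8.34 at 16 h. All 4 h values lay below (log2 change -0.45, SE 0.12, limma adjusted p = 0.529). A second detected Per2 probe (ILMN_2987863) gave -0.29 (limma adjusted p = 0.741), also with all 4 h values below. Other loop genes also gave smaller changes at their other detected probes. These were -0.20 for Per1 (against -0.29), -0.27 and -0.36 for Ciart (against -0.55) and -0.05 for Clock (against 0.22). The output factor Tef was at 7.44, 7.61 and 7.55 at 4 h and at 8.26, 8.42 and 8.37 at 16 h, so that it was lower at 4 h (log2 change -0.81, SE 0.077, limma adjusted p = 0.0325), although its call was lost in 15 of the 19 alternatives (adjusted p between 0.0278 and 0.489 over all of them).

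The intervals of the 5 genes were compared with the log2 changes of the 11 loop genes. Only the point estimate of each loop gene was used. The loop genes have intervals of their own, such as -0.47 to -0.11 for Per1 and -0.44 to -0.11 for Cry2. A loop gene outside the interval of another gene is therefore not a tested difference between the genes. At the brightest probes of Csnk1d and Csnk1e in the main fit, 8 loop genes lay below the 95% interval and 2 lay above it. Only Nr1d1 lay within it. For Timeless, 8 lay below, 1 (Arntl) lay above, and Clock and Nr1d1 lay within. For Btrc, 6 lay below and 2 above, with Nr1d1, Per1 and Cry2 within. For Gsk3b, 5 lay below and 2 above, and Nr1d1, Per1, Cry2 and Bhlhe40 lay within the interval. The interval of Csnk1e ILMN_2689333, from -0.67 to 0.11, held 8 of the 11 loop genes, Per2 included, and that of Csnk1d ILMN_2746075, from -0.39 to 0.45, held 4. Changes of Btrc and Gsk3b of the size measured for Per1 (-0.29) or Cry2 (-0.27) were therefore not excluded with 3 arrays per time point. Nor were they at Csnk1d ILMN_2739965 (interval from -0.30 to 0.20) and ILMN_2746075 or at Csnk1e ILMN_2689333. All these intervals rest on the variance model of the main fit. With trend and robust variance the SE was 0.14 for Csnk1d and 0.13 for Csnk1e, in place of 0.098 and 0.081. Intervals at these larger SEs were not computed. The placing of Per1 and Cry2 outside the Csnk1d and Csnk1e intervals is therefore given for the main fit only. The log2 changes of loop genes at dim probes also depended on the background setting. With an offset of 16 that of Cry2 was -0.44 and that of Per1 was -0.36. Without background correction and its offset together they were -0.93 and -0.45.

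The difference from Arntl, Per2 and Tef was then compared within arrays. The time points of each of these loop genes did not overlap in these same data. A transcript without a change would therefore also tend to separate from them, and the counts below cannot set the 5 genes apart. For each of the 5 genes, its log2 value minus that of Arntl, Per2 or Tef on the same array was compared between the time points, 15 pairs in all. The time points did not overlap in 13 of the 15, each with an exact two-sided permutation p of 0.1, the smallest value that 3 arrays against 3 allow, and an adjusted p of 0.115 over the 15 pairs. Against Arntl and against Tef all 5 genes separated the time points, with the changes differing by -0.69 to -0.47 from that of Arntl and by 0.64 to 0.86 from that of Tef. Against Per2, Csnk1e, Btrc and Timeless separated them (differences of 0.38, 0.40 and 0.50), and Csnk1d and Gsk3b did not (0.43 and 0.28, exact permutation p = 0.2 and 0.4). Of the detected probes, 87.5% separated the time points in this way against Arntl, 54.7% against Per2 and 97% against Tef. The separation from these 3 loop genes was therefore shared with most transcripts, and the other loop genes were not tested in this way.

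**Figure D4:**
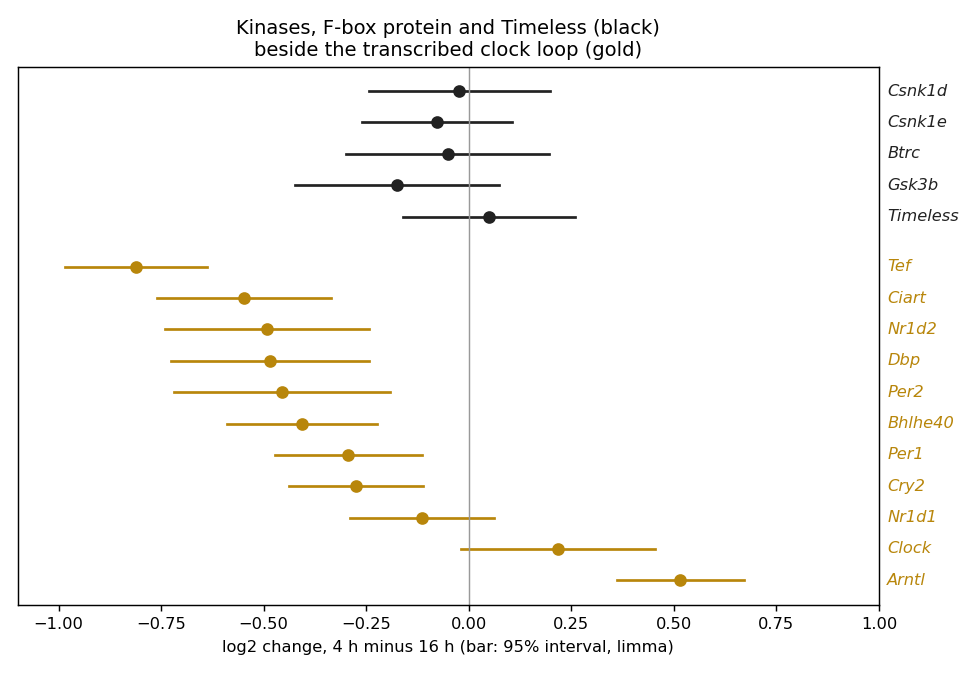
Log2 change (horizontal axis, 4 h minus 16 h) with its 95% interval from limma for the 5 measured kinase, F-box protein and Timeless genes (black) and the 11 genes of the transcribed clock loop that were detected (gold). The 5 intervals in black all include 0, whereas 9 of the 11 in gold do not.

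Other genes that modify clock proteins were described to place these 5 in their pathway. Of 38 such genes, 35 were detected. Limma called 0 of the 35 after adjustment, and at an unadjusted p under 0.05 there were 0 higher and 1 lower, where 10.3% of probes passed in either direction. The median log2 change was 0.00059 and the median absolute change was 0.11, and 18 of the 35 had a log2 change above 0. On the deposited scale, 21 of the 35 were higher on every 4 h array and 0 were lower, where 44.5% and 0.219% of detected probes were.

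The 1 gene past the unadjusted threshold was Usp2, a deubiquitinase that acts on clock proteins. It was at 6.81, 7.16 and 6.97 at 4 h and at 7.14, 7.59 and 7.59 at 16 h, with a slight overlap between the time points (log2 change -0.46, SE 0.13, limma adjusted p = 0.678). Usp2 was also lower on all 3 arrays high in 18S ribosomal RNA than on the others. With these arrays as a block it gave -0.34. Leaving out 1 array gave between -0.62 (without 16 h replicate 1) and -0.37 (without 4 h replicate 1). The time points did not overlap in 1 of the 35 genes, where 11.4% of detected probes did not overlap, and this was Mapk9, which encodes the kinase JNK2, at 9.23, 9.22 and 9.21 against 9.09, 9.12 and 9.07 (log2 change 0.13, SE 0.062, limma adjusted p = 0.920). Mapk8, encoding JNK1, gave -0.11 (limma adjusted p = 0.946), and -0.051 with all its probes averaged or -0.014 with its detected probes averaged.

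By role, the remaining casein kinases ranged from Csnk1g1 at -0.11 to Csnk1g3 at 0.18 (limma adjusted p = 0.951 and 0.920). For Csnk1g1, leaving out 1 array gave between -0.17 (without 4 h replicate 3) and -0.057 (without 4 h replicate 1). In the core of the SCF ligase that the F-box proteins join, the scaffold gene Cul1 gave 0.10 and Nedd8, whose product activates cullins, gave -0.13 (limma adjusted p = 0.959 and 0.936). Leaving out 1 array gave between 0.028 (without 4 h replicate 2) and 0.16 (without 4 h replicate 3) for Cul1, which gave 0.17 with the 18S block, and -0.076 for Nedd8 without 4 h replicate 1. Of the other ligase genes, Cul4a gave 0.21 (limma adjusted p = 0.919), and 0.13 without 4 h replicate 3. Among the phosphatases that oppose casein kinase 1, Ppp1cb gave 0.23 and Ppp1cc -0.17 (limma adjusted p = 0.959 and 0.933). The value of Ppp1cb was between 0.023 (without 16 h replicate 2) and 0.45 (without 16 h replicate 1) when 1 array was left out, and that of Ppp1cc between -0.26 (without 4 h replicate 2) and -0.10 (without 4 h replicate 1). Ppp1cb was higher on all 3 arrays high in 18S ribosomal RNA than on the others, and with these arrays as a block it gave 0.028 and Ppp1cc -0.097. Of the partners of TIMELESS at the replication fork, Clspn gave 0.19 and Tipin -0.02 (limma adjusted p = 0.941 and 0.993). None of these values was called, and they depended on the probe, the array and the scaling. Without between-array normalization, which leaves in the higher brightness at 4 h, Csnk1g3, Cul1, Cul4a, Nedd8, Ppp1cc, Tipin and Mapk9 were called higher (limma adjusted p between 0.0368 and 0.0499). Of these, Nedd8, Ppp1cc and Tipin had log2 changes below 0 after normalization. With all probes of a gene averaged, the directions of Cul1 and Tipin turned, Usp2 gave -0.15, Cul4a 0.036, Csnk1g3 0.047, Csnk1g1 -0.064, Ppp1cc -0.066 and Clspn 0.085. At its brightest probe Clspn gave 0.062 without 4 h replicate 3 and 0.31 without 4 h replicate 2. It was also higher on all 3 arrays high in 18S ribosomal RNA than on the others, and gave 0.12 with these arrays as a block.

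The values of the 5 genes were also compared with each other across arrays. Over the 6 arrays, Pearson's r between pairs of the 5 genes was between -0.75 (Csnk1d with Btrc) and 0.44 (Csnk1d with Csnk1e), values given as a description, since the arrays share their normalization. The range of normalized log2 intensity over the 6 arrays was 0.33 for the median of the 5 genes and 0.39 for the median detected probe. The transcripts most like each gene over the 6 arrays were Gtf2i for Csnk1d (r = 0.99), Limk2 for Csnk1e (0.99), Cox17 for Btrc (0.98), Ascc2 for Gsk3b (0.996) and Ddx21 for Timeless (0.99). Each was the closest of at least 13321 probes, and between 36 and 246 probes per gene exceeded an r of 0.9, so that close matches were frequent with 6 arrays. None of these 5 transcripts passed the threshold between the time points (limma adjusted p between 0.953 and 0.999).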

How the data were processed

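Total RNA of synchronized mGLUTag cells at 4 h and 16 h (3 samples each, grouped by their labels) was hybridized to mouse WG-6 V2 Illumina BeadChips by the authors. The deposited intensity values are linear, 1 per probe and array, with background subtracted (31.2% to 34.0% of an array below 0) and no normalization between arrays. Background method, detection p-values and control probes were not given in the sources used here. Arrays carry no counts, so their number limits the precision.

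Normexp correction with an offset of 50, quantile normalization and the log2 step were run with limma 3.58.1 (R 4.3.3). All 45281 probes were fitted with lmFit and eBayes on time alone, with Benjamini-Hochberg adjustment of two-sided p (threshold 0.05). The procedure was run on simulated data with independent noise and planted changes larger than those measured for the members. That run does not measure the power to find changes of the size reported here. Symbols were matched to RefSeq (GRCm38.p6), 27760 by symbol and 7994 by a synonym of 1 gene only. The probe with the highest mean represented a gene. Single values were compared by exact permutation.

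The member genes and lists were chosen with earlier results of these data known. All members were named, as were loop genes above the noise limit and, of each other list, the gene with the smallest p in each direction, besides the most similar transcript of each member. Alternatives comprised 4 normalizations, 2 background settings, a filter, variance and weight models, blocks, probe averaging and leaving out each array.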

Additional observations from a re-analysis of the deposited data

How the results depend on the processing

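All alternatives were planned. None of the 5 measured member genes was called at its brightest probe, or with probes averaged, in any of the 19 alternatives, where the smallest limma adjusted p was 0.101 (Timeless, no between-array normalization). Of their other detected probes, Csnk1d ILMN_3103652 was called in that same setting (0.48, limma adjusted p = 0.0491). With no between-array normalization the median log2 change of probes detected on all 6 arrays was 0.39 and with median scaling 0.30, and directions in these settings include that shared rise. Without normalization the directions of Csnk1d (0.47), Csnk1e (0.40), Btrc (0.41), Gsk3b (0.16), Nr1d1 (0.058), Per1 (0.11), Dbp (0.0011), Csnk1g1 (0.10), Mapk8 (0.28), Nedd8 (0.34), Ppp1cc (0.32), Tipin (0.45) and probes ILMN_2689333 (0.18), ILMN_2739965 (0.44), ILMN_3030340 (0.38) and ILMN_2690741 (0.0998) were reversed. With median scaling those of Csnk1d (0.38), Csnk1e (0.32), Btrc (0.32), Gsk3b (0.072), Per1 (0.020), Csnk1g1 (0.015), Mapk8 (0.19), Nedd8 (0.25), Ppp1cc (0.23), Tipin (0.36) and the same 4 probes (0.092, 0.35, 0.29 and 0.011) were reversed. Averaging all probes, or those above the noise limit, reversed Cul1 (-0.040 in both) and Tipin (0.088 and 0.10). The block on the 18S separation reversed Tipin (0.020) and ILMN_2746075 (-0.13), and linear scaling reversed ILMN_3030340 (0.0030).

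The median change of the 5 genes was 0.41 without normalization, 0.32 with median scaling, -0.092 with the 18S block and -0.020 with all probes averaged. That of the loop genes was -0.0072, -0.096, -0.36 and -0.28 in the same settings, -0.59 without background correction and -0.50 with an offset of 16. That of the other modifiers was 0.45 without normalization, 0.36 with median scaling, and 0.036 and 0.038 with probes averaged. Without normalization 8 of the 35 were called higher, a count to be read beside that over all probes in the same setting, given below. Of the loop genes, 1 was called higher (Arntl) with either of these scalings, and 0 were called lower without background correction, with an offset of 16, no normalization, median scaling, the noise filter, trend and robust variance, the 18S block or all probes averaged.

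Over all 45281 probes, limma called 2 higher and 2 lower. The counts were 19 and 10 without background correction, 2308 and 0 without normalization, 832 and 0 with median scaling, 0 higher with cyclic loess, 1 and 0 with trend and robust variance, 1 lower with all probes averaged, and 0 and 0 with an offset of 16, the filter and the 18S block (where the unadjusted p was under 0.05 for 2486, 1029 and 2655). Samples with the same replicate number were treated as unpaired, since the correlation of their deviations was 0.24, 0.17 and -0.47. With a replicate block, 0 probes were called higher and 0 lower (2480 had an unadjusted p under 0.05), so 0 loop genes were, and no call of a member changed.

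Leaving out 1 array gave 0 to 0 probes higher and 0 to 0 lower, with 0 to 0 loop genes lower (limma, unadjusted p under 0.05 for 1844 to 3209 probes). Log2 changes were then between -0.11 and 0.042 for Csnk1d, -0.17 and 0.012 for Btrc, -0.034 and 0.13 for Timeless, -0.085 and 0.057 for Tipin, -0.13 and 0.039 for ILMN_2739965, -0.13 and 0.093 for ILMN_3030340, -0.066 and 0.17 for ILMN_3103652, -0.092 and 0.27 for ILMN_2746075, and -0.18 and 0.015 for ILMN_2690741. The medians were between -0.088 and -0.026 for the 5 genes, -0.46 and -0.36 for the loop and 0.018 and 0.046 for the other modifiers. Apart from the shared brightness in the scalings, the cause of these shifts was not tested.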
